A study of Homo sapiens with 6 samples.

Results

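The genes described are 8 members of the caspase and apoptosome machinery, chosen by symbol from the deposited gene tables: the inflammatory caspases CASP1 and CASP4, the initiators CASP2 and CASP9, the executioner CASP6, the apoptosome genes APAF1 and CYCS, and the caspase-activated nuclease gene DFFB. All were among the 32353 genes of the count table and among the 17887 tested after genes with low counts were set aside. They were measured by RNA-seq of total RNA in CAL27, a long-established human line derived from a squamous carcinoma of the tongue. A group of 3 libraries came from cells given a control plasmid and a group of 3 from cells overexpressing RBM24, an RNA-binding protein known as a splicing regulator of heart and skeletal muscle. The vector and its promoter, the way and time of delivery and whether the replicates were separate cultures are not given in the sources used here, and every p-value below therefore speaks of the spread among these libraries, which could be purely technical. The study's title names apoptosis, and the comparison asks whether transcripts of this machinery differed between the groups.

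Caspases are proteases made as inactive precursors. In the mitochondrial route, cytochrome c (CYCS) leaves the mitochondria and binds APAF1, which assembles into the apoptosome and activates caspase-9; caspase-9 then cleaves executioner caspases, whose targets include the inhibitor (DFFA) that holds the nuclease DFFB in check. Caspase-1 and caspase-4 belong to another route, in which inflammasomes or bacterial lipopolysaccharide start cytokine maturation and gasdermin pores. These steps act on protein already made, so a transcript level is not a measure of caspase activity.

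The 6 libraries held 53558773 to 68804210 gene counts, and 374 to 37232 counts per library fell on a member. RBM24 itself, which checks the labels, stood at 2.35, 2.96 and 3.50 CPM (a gene's counts relative to the TMM-scaled library total) in control libraries 1 to 3 and at 125, 109 and 124 in RBM24 libraries 1 to 3 (log2 fold change 5.34, SE 0.0995; edgeR adjusted p = 2.16e-15). Of 9 squamous epithelial markers, none had a mean under 1 CPM, although KRT14 stood at 4.27 CPM on average, against 662 for KRT5; their summed level was 1732 to 1832 CPM in the control and 1921 to 1934 in the RBM24 libraries. Markers of immune cells, which are rich in CASP1, summed to 20.4 to 24.1 CPM in the control and 21.2 to 22.5 in the RBM24 libraries, mostly from CD14 (18.7 on average); 5 of these 8 had a mean under 1 CPM, and MS4A1 and NKG7 were at 0. Control library 1 stood apart on the main principal component, at -33.4 against -4.95 to 15.4 for the other 5 libraries. The groups did not overlap on this component either. Control libraries 2 and 3 lay at -4.95 and -0.036, and RBM24 libraries 1 to 3 at 13.7, 15.4 and 9.28. Values without control library 1 are given beside some genes, and a gene without such a value may also depend on that library.

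Stretches of DNA before the RefSeq gene start are shown for the 3 members that had a promoter entry and lay lower, in CPM, in every RBM24 library. Their unlike composition can thus be seen. Each is the 250 bases before the start of the RefSeq gene on GRCh38.p14, 5′ to 3′ on the gene's own strand, with CpG pairs in capitals. They lie at chr11:104968575-104968824 (CASP4, minus strand), chr12:98645040-98645289 (APAF1, plus strand) and chr7:25125261-25125510 (CYCS, minus strand), and the CASP4 window lies wholly inside the gene bounds of GENCODE 29, while those of APAF1 and CYCS overlap them in part.
CASP4: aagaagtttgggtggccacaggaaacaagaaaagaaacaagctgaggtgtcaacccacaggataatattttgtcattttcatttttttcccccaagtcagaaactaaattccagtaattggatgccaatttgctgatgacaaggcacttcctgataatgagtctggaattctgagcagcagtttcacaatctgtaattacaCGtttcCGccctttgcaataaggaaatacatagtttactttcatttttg
APAF1: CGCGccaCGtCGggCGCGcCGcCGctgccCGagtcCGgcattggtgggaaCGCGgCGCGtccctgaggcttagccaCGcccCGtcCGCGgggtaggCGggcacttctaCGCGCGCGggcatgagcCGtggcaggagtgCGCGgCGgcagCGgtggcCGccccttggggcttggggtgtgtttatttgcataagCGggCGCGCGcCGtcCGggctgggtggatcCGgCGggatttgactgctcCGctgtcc
CYCS: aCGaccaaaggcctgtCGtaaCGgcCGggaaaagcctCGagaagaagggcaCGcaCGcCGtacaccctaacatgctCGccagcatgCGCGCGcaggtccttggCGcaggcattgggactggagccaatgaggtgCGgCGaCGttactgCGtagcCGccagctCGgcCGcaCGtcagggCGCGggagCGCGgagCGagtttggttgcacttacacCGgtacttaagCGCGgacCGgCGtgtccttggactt
The CASP4 window held 2 CpG pairs at a GC content of 38%. The APAF1 window held 38 at 73.6%, and the CYCS window 31 at 64.4%. Over 35116 such windows the median was 11 CpG pairs and 58% GC.

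None of the 8 members passed the test for a difference between the groups (edgeR quasi-likelihood test, Benjamini-Hochberg adjusted p under 0.05 over all tested genes), where 1.54% of all tested genes did. At an unadjusted p under 0.05 there were 3 members, CASP1, CASP4 and APAF1, all lower with RBM24. In all tested genes 13% lay under that p, 6.4% lower and 6.62% higher. DESeq2, which called 2.69% of the genes it gave an adjusted p, called 0 of the 8 members, as did limma-voom and limma on the deposited FPKM values. The log2 fold changes, RBM24 over control, ran from -0.15 to 0.17, with 4 members below 0 and 4 above. Their median size regardless of sign was 0.13, against 0.086 over all tested genes. In CPM the libraries of the groups did not overlap for 5 of the 8, 4 lower with RBM24 and 1 higher. Of all tested genes 18.1% did not overlap, 8.62% lower and 9.53% higher. In deposited FPKM, CYCS overlapped between the groups and CASP6 did not. The CPM values also carry TMM scaling, and every member lay higher with total counts only. The edgeR log2 fold changes were then -0.11 (CASP1), -0.098 (CASP4), -0.12 (APAF1) and -0.099 (CYCS). For the other members they were 0.20 (DFFB), 0.11 (CASP2), 0.052 (CASP6) and 0.059 (CASP9). The members were chosen with earlier results of these data known, so their shares beside those of all genes are not independent evidence. In RNA from bulk cultures, fewer cells that express a gene and less RNA per cell cannot be told apart.

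**Figure D1:**
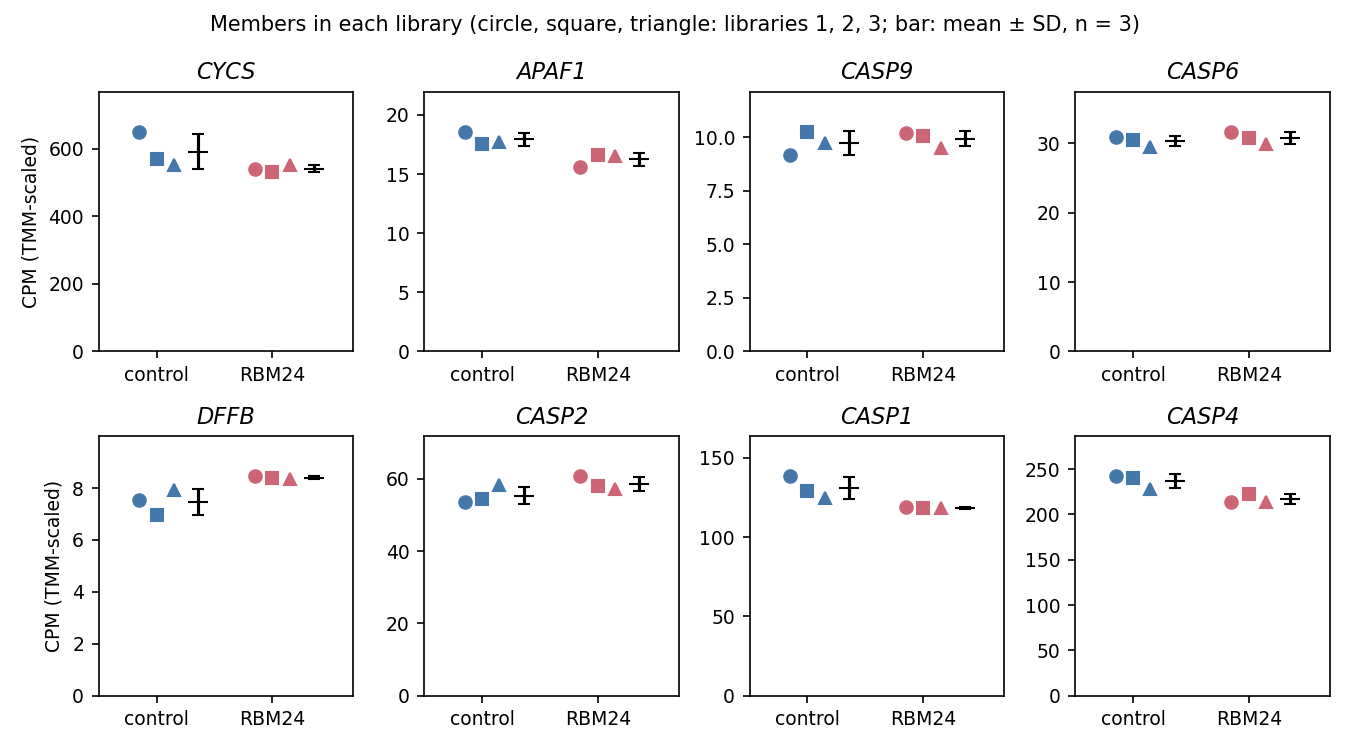
Level of each member in every library, in TMM-scaled CPM on axes that start at 0 (blue, control; red, RBM24; bars, mean ± SD, n = 3). CYCS, APAF1, CASP1 and CASP4 lay lower in every RBM24 library and DFFB higher, and CASP9, CASP6 and CASP2 overlapped between the groups.

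CYCS (ENSG00000172115.9, GRCh38 chromosome 7, 25120091 to 25125361, minus strand), the electron carrier whose release starts apoptosome assembly, stood at 650.5, 570.2 and 553 CPM in control libraries 1 to 3 and at 539, 531 and 551 in RBM24 libraries 1 to 3. Control library 1 lay far above the other 5, and the lowest control library exceeded the highest RBM24 library by a small margin. In deposited FPKM (per gene length and library total) the groups overlapped, at 89.33 to 100.84 in the control and 85.85 to 89.48 in the RBM24 libraries. The means were 591 ± 52.1 and 540.4 ± 10.2 CPM (SD, n = 3 each), a log2 fold change of -0.13 (SE 0.0617; edgeR adjusted p = 0.391). Without control library 1 it was -0.056 (adjusted p = 0.709). Cytochrome c has many processed pseudogenes, and 12 of them have entries in the count table; together they held 1.12 CPM, 0.198% of the level of CYCS, so reads assigned to those entries were few.

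APAF1 (ENSG00000120868.14, chromosome 12, 98645141 to 98735433, plus strand), the scaffold of the apoptosome, stood at 18.6, 17.6 and 17.7 CPM in the control and at 15.6, 16.6 and 16.5 in the RBM24 libraries. The groups did not overlap, with RBM24 library 1 lowest. The means of 18.0 ± 0.561 and 16.2 ± 0.562 CPM (SD, n = 3 each) gave a log2 fold change of -0.15 (SE 0.0649; edgeR adjusted p = 0.349). The 95% interval of the fold, 0.822 to 0.995, is for APAF1 alone and is not adjusted for the number of genes tested.

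CASP9 (ENSG00000132906.18, chromosome 1, 15490832 to 15526534, minus strand), the initiator caspase that the apoptosome activates, stood at 9.18, 10.3 and 9.74 CPM in the control and at 10.2, 10.1 and 9.52 in the RBM24 libraries. The groups overlapped fully, and the extreme values of the 6 were both control libraries. Its log2 fold change was 0.030 (SE 0.0776; edgeR adjusted p = 0.916), with a 95% interval of the fold from 0.911 to 1.14. The sign turned without control library 1, at -0.010 (adjusted p = 0.976). In deposited FPKM, a unit that divides by gene length and library total, CASP9 over APAF1 was 0.726, 0.863 and 0.808 in the control and 0.963, 0.895 and 0.85 in the RBM24 libraries, so this ratio overlapped between the groups.

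CASP6 (ENSG00000138794.10, chromosome 4, 109688622 to 109703583, minus strand), an executioner caspase that cleaves nuclear lamins, stood at 30.8, 30.5 and 29.5 CPM in the control and at 31.7, 30.7 and 29.9 in the RBM24 libraries. These values were the most even of the 8 members between the groups, with a log2 fold change of 0.022 (SE 0.0579; edgeR adjusted p = 0.916) and a 95% interval of the fold from 0.933 to 1.11. Without control library 1 it was 0.035 (adjusted p = 0.873 in edgeR). In deposited FPKM, CASP6 stood at 14.25, 14.26 and 14.25 in the control and at 15.15, 14.82 and 14.45 in the RBM24 libraries. In that unit its groups did not overlap. CASP6 overlaps MCUB, which has 28.1 CPM, on the opposite strand by its end, so reads of that stretch are uncertain unless the counting used strand, which no source used here states.

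DFFB (ENSG00000169598.17, chromosome 1, 3857267 to 3885429, plus strand), the nuclease that cuts DNA between nucleosomes in dying cells, was the member with the lowest count. In CPM it was the only member whose RBM24 libraries all lay above the control libraries. It stood at 7.53, 6.95 and 7.94 CPM in the control and at 8.47, 8.39 and 8.33 in the RBM24 libraries. The means of 7.48 ± 0.497 and 8.40 ± 0.0691 CPM (SD, n = 3 each) gave a log2 fold change of 0.17 (SE 0.0817; edgeR adjusted p = 0.404). Its inhibitor DFFA stood at 85.2 ± 1.30 and 82.7 ± 1.68 CPM (SD, n = 3 each; edgeR adjusted p = 0.760). The FPKM ratio of DFFB to DFFA was 0.152, 0.137 and 0.162 in the control and 0.172, 0.174 and 0.176 in the RBM24 libraries. The ratio was thus higher in all 3 RBM24 libraries, a pattern picked out after the values were seen.

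CASP2 (ENSG00000106144.20, chromosome 7, 143288215 to 143307696, plus strand), an initiator caspase activated on the PIDD1 and CRADD complex, stood at 53.5, 54.4 and 58.2 CPM in the control and at 60.8, 58.1 and 57.1 in the RBM24 libraries. Control library 3 lay within the range of the RBM24 libraries. The log2 fold change was 0.083 (SE 0.0530; edgeR adjusted p = 0.547), with a 95% interval of the fold from 0.980 to 1.15. CASP2 and CASP9 are both known for splice forms that oppose their full-length products, and gene counts do not separate these forms; GENCODE 29 lists 7 transcripts of CASP2 and 11 of CASP9.

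CASP1 (ENSG00000137752.24, chromosome 11, 105025443 to 105035250, minus strand), the protease of inflammasomes that matures interleukin-1β, stood at 139, 129 and 125 CPM in the control and at 119, 118 and 118 in the RBM24 libraries. The RBM24 libraries were nearly equal, below all control libraries. The means of 131 ± 7.02 and 118 ± 0.443 CPM (SD, n = 3 each) gave a log2 fold change of -0.14 (SE 0.0503) and the smallest adjusted p of the 8 members, 0.204 in edgeR and 0.131 in DESeq2. Without control library 1, where CASP1 was highest, the log2 fold change was -0.10 (edgeR adjusted p = 0.435).

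CASP4 (ENSG00000196954.14, chromosome 11, 104942866 to 104969436, minus strand), the sensor of lipopolysaccharide in the cytosol, lies near CASP1 in the same cluster of caspase genes. It stood at 243, 239.9 and 228 CPM in the control and at 214, 223 and 214 in the RBM24 libraries. The groups did not overlap. The means of 237 ± 7.62 and 217 ± 5.28 CPM (SD, n = 3 each) gave a log2 fold change of -0.13 (SE 0.0489; edgeR adjusted p = 0.262), and the 95% interval of the fold ran from 0.852 to 0.983. The FPKM ratio of CASP1 to CASP4 was 0.996 ± 0.0305 in the control and 0.985 ± 0.0254 in the RBM24 libraries (SD, n = 3 each), a difference below the spread between replicates.

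**Figure D2:**
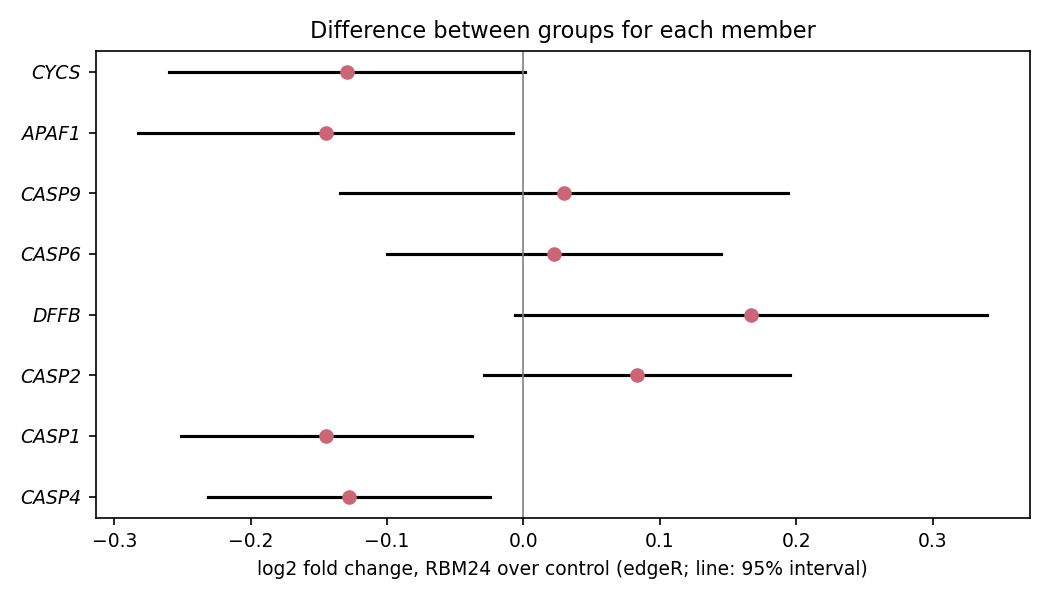
Log2 fold change of each member, RBM24 over control, with its 95% interval from edgeR, not adjusted for the number of genes. The points ran from -0.15 (APAF1) to 0.17 (DFFB), and the intervals of APAF1, CASP1 and CASP4 lay below 0.

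All intervals stayed within a fold of 0.822 (APAF1, lower bound) to 1.27 (DFFB, upper bound). The call was the same under all 16 alternatives of scaling, filter, tool, unit, replicate block or a left-out library, each of which called 0 of the 8 members. The lowest adjusted p over these was 0.131 for CASP1, 0.150 for CASP4 and 0.201 for CYCS. Leaving out control library 1 brought CYCS to -0.056 and CASP1 to -0.10, while leaving out control library 3 gave -0.18 for each of them (edgeR adjusted p = 0.201 and 0.134) and 0.21 for DFFB (adjusted p = 0.317).

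**Figure D3:**
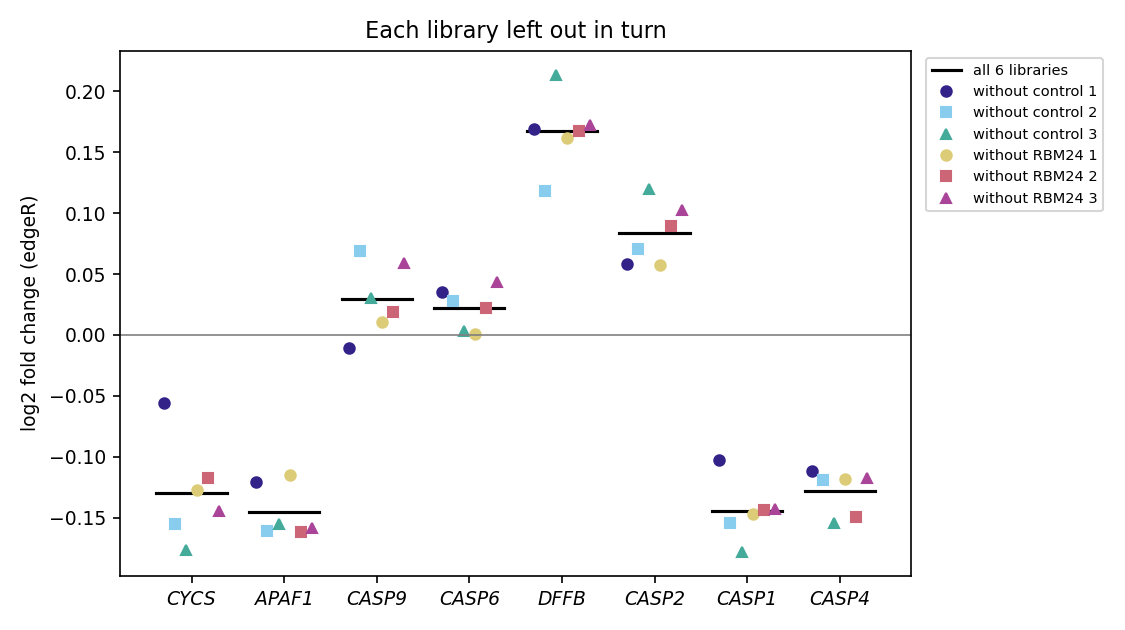
Log2 fold change of each member with all 6 libraries (black line) and with each library left out in turn (coloured symbols). Without control library 1 the value of CYCS was -0.056 and that of CASP9 turned to -0.010; the sign of the other members stayed the same.

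In deposited FPKM, CYCS was by far the most abundant member, at 93.2 ± 6.57 FPKM in the control and 87.3 ± 1.94 in the RBM24 libraries (SD, n = 3 each). CASP4 (32.5 ± 0.303 FPKM in the control, SD, n = 3) and CASP1 (32.4 ± 1.13) followed with overlapping ranges, then CASP6 (14.3 ± 0.00577), CASP2 (6.32 ± 0.433) and APAF1 (2.11 ± 0.0551). DFFB (1.77 ± 0.151 FPKM) and CASP9 (1.69 ± 0.112) came last with overlapping ranges. The executioner and inflammatory caspases thus stood above the scaffold and initiator of the apoptosome in every library. In the control libraries APAF1, at 2.05 to 2.15 FPKM, lay above DFFB, at 1.63 to 1.93, while in the RBM24 libraries DFFB, at 2.02 to 2.03, lay above APAF1, at 1.87 to 2.00. The ratio of CYCS to APAF1 was 44.1 ± 2.56 and 44.6 ± 1.66 (SD, n = 3 each).

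**Figure D4:**
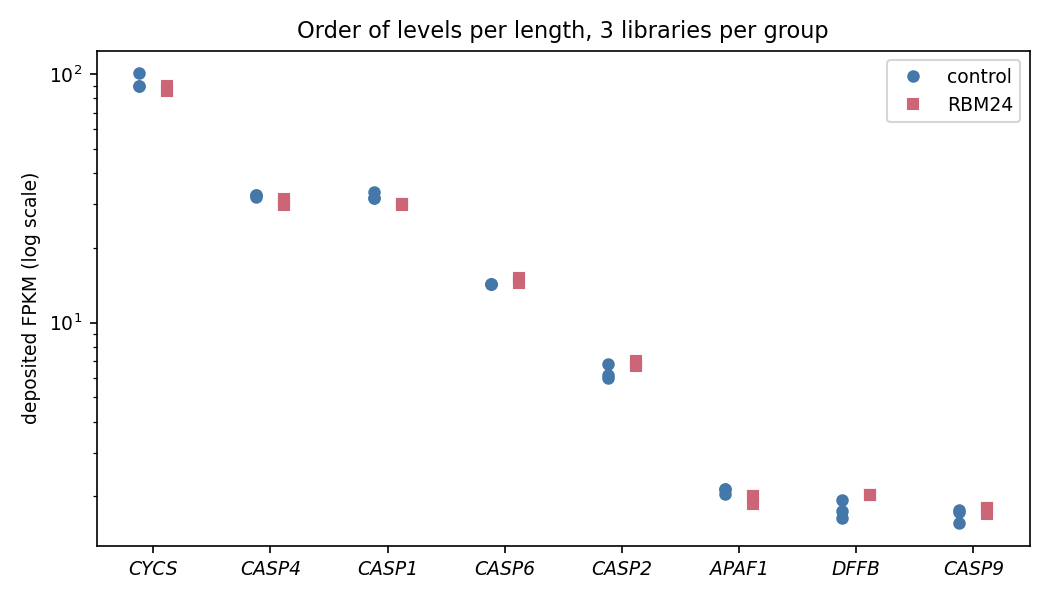
Deposited FPKM of each member in every library on a log scale, ordered by the control mean (blue circles, control; red squares, RBM24). CYCS lay near 93.2 FPKM and DFFB and CASP9 near 1.77 and 1.69 in the control libraries, and with the gene lengths behind these FPKM values the order of APAF1 and DFFB differed between the groups.

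Part of this order rests on the gene length used. The lengths implied by counts and FPKM were 7205 bases for CASP4 and 5697 for CASP9, while the principal transcripts of GENCODE 29 measure 2158 and 2019 bases. With CPM per kilobase of principal transcript, CYCS stood at 144.2, CASP4 at 109.8 and CASP1 at 65.4 in the control libraries. There CASP9 stood at 4.82, APAF1 at 3.30 and DFFB at 2.47. CYCS thus still came first, but CASP4 lay much nearer to it than in FPKM. On that scale CASP4 exceeded CASP1 and CASP9 exceeded APAF1, and the order of the APAF1 and CASP9 levels was thus not fixed by these data. APAF1 also stayed above DFFB in the RBM24 libraries on that scale, at 2.86 to 3.05 against 2.75 to 2.80, so the change of their order between the groups was seen with the FPKM lengths and not with these.

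RefSeq promoter windows matched 6 of the 8 members, in 8 windows; CASP1 and DFFB had no entry. Of the 8 windows, 6 held over 20 CpG pairs, against 30.2% of all windows, and the others, of CASP4 and the downstream start of CASP2, held 2 each. CASP2 and CASP9 gave 2 member windows each, and all windows here include those of genes not tested in these libraries. Short motifs were searched on both strands. The core bound by interferon regulatory factors, AANNGAAA, matched only the CASP4 window among these 8, at 3 places, and 20.3% of all windows. The STAT site TTCNNNGAA matched 0 member windows and 6.57% of all windows. The GC box GGGCGG matched 6 of the 8 windows, against 42.6% of all windows, and CCAAT matched 5, against 32.0%; TATAAA matched 0, against 10.7%. RBM24 is known to favour GU-rich RNA. The letters GTGTG occurred in the 3′ UTR of the principal transcript in 5 of the 8 members, against 67.1% of 12930 tested protein-coding genes. The count was 6 in CYCS, 5 in CASP2 and 2 each in APAF1, CASP1 and DFFB, and 0 in CASP4, CASP6 and CASP9. These counts also follow 3′ UTR length, which was 3610 bases in CYCS and 2625 in CASP2. The members without a match had short 3′ UTRs, of 113 (CASP4), 588 (CASP6) and 673 bases (CASP9), against a median of 1135. Per kilobase the order differed, with 2.67 in CASP1, 2.08 in APAF1, 1.90 in CASP2 and 1.66 in CYCS, and less in DFFB. Such matches describe sequence and do not show binding.

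The other genes of the pathway came from lists of 59 genes, of which 52 were tested. Of these, 0 were higher and 2 lower at an adjusted p under 0.05 (edgeR), where 0.855% of all tested genes were called higher and 0.682% lower; the lists' median log2 fold change was -0.021, against -0.0037 over all tested genes. IRF1, an interferon-response transcription factor known to act on CASP1, fell from 324, 339.8 and 297 CPM in the control libraries to 251, 271 and 273 in the RBM24 libraries, without overlap (log2 fold change -0.27, SE 0.0580; edgeR adjusted p = 0.0236). IL1B, whose product caspase-1 cleaves, fell from 476, 422 and 323 CPM to 263, 294 and 326, with control library 3 within the range of the RBM24 libraries (log2 fold change -0.47, SE 0.104; edgeR adjusted p = 0.0307). The call of IRF1 ended without control library 2 (edgeR adjusted p = 0.0682) and without RBM24 library 1 (0.164) or 2 (0.108). IL1B lost its call without control library 1 (0.0971), where its log2 fold change was -0.34, and without control library 2 (0.0673). Its call also ended without RBM24 library 1 (0.141) or 2 (0.124), and by DESeq2 (0.176). Both ended with limma on the FPKM values (lowest adjusted p = 0.144 for IRF1 and 0.247 for IL1B).

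**Figure D5:**
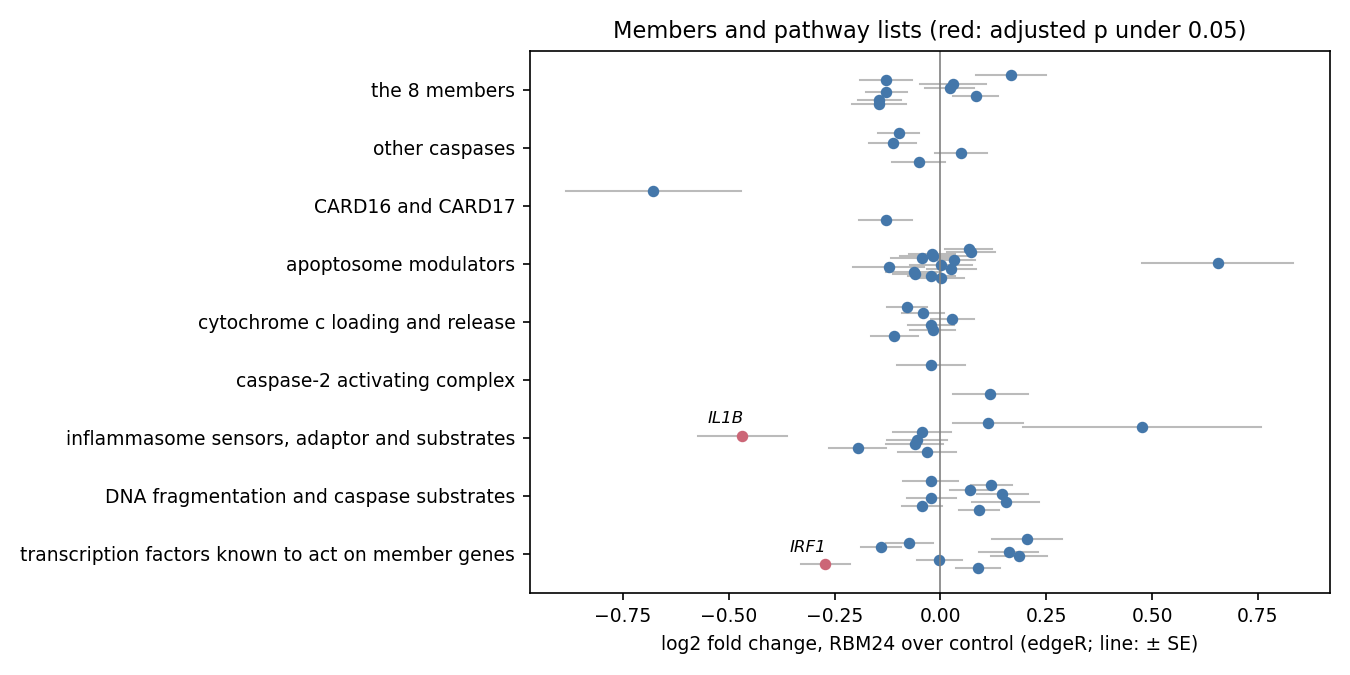
Log2 fold changes of the 8 members and the tested genes of each pathway list with their SE (edgeR; red, adjusted p under 0.05). Most points lay near 0, IL1B and IRF1 passed on the lower side, and the outlying CARD17, DIABLO and NLRP3 are entries with low counts.

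Of 7 other caspases, 4 were tested and none passed (edgeR; 0 at an unadjusted p under 0.05, and 0 by DESeq2 and limma-voom). The death receptor initiator CASP8 had a log2 fold change of -0.099 (edgeR adjusted p = 0.411) and its relative CASP10 of -0.052 (adjusted p = 0.791), or -0.0053 without control library 1. CASP5, the inflammatory relative of CASP4, held 9 counts over all 6 libraries and CASP12 2, and neither was tested; CASP14 is not listed in the table.

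CARD16 and CARD17, next to CASP1, are transcribed unprocessed pseudogenes by the gene type in the deposited table. CARD16 stood at 32.2 ± 1.20 CPM in the control and 29.4 ± 1.62 in the RBM24 libraries (SD, n = 3 each; log2 fold change -0.13, edgeR adjusted p = 0.397), and its libraries did not overlap between the groups. CARD17, at 1.49 ± 0.365 and 0.934 ± 0.184 CPM (SD, n = 3 each), had a log2 fold change of -0.68 (edgeR adjusted p = 0.131), which passed with no filter on low counts (adjusted p = 0.0245). Without control library 1 the log2 fold change of CARD17 was -0.46 (edgeR adjusted p = 0.395). CARD16 and CARD17 share much of their sequence with CASP1, so it is uncertain which of these genes some reads came from. The FPKM ratio of CASP1 to CARD16 was 1.85 ± 0.0418 in the control and 1.84 ± 0.101 in the RBM24 libraries (SD, n = 3 each).

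None of 14 apoptosome modulators passed (edgeR; median log2 fold change -0.0082). The smallest p belonged to DIABLO, an antagonist of IAP proteins, with a log2 fold change of 0.66 on an entry of 0.945 ± 0.0633 CPM in the control and 1.49 ± 0.245 in the RBM24 libraries (SD, n = 3 each; edgeR adjusted p = 0.0904; 0.0312 with no filter on low counts). The IAP gene BIRC3 had a log2 fold change of -0.12 (adjusted p = 0.582), which was -0.020 without control library 1 and -0.23 without RBM24 library 3. TRIAP1 had 0.072 (adjusted p = 0.644), or 0.12 without control library 1. Of 6 genes of cytochrome c loading and release, none passed; the pore-forming BAK1 had -0.11 (adjusted p = 0.421), and the outer membrane channels VDAC2 and VDAC1 had -0.080 (adjusted p = 0.512) and -0.040 (adjusted p = 0.792; -0.026 without control library 1). The CASP2 partners CRADD (0.12, adjusted p = 0.620) and PIDD1 (-0.023, adjusted p = 0.942; -0.080 without control library 1) did not pass.

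Of 8 tested inflammasome genes, IL1B was the only one called. The guanylate-binding protein gene GBP2 had a log2 fold change of -0.20 (edgeR adjusted p = 0.200) and the sensor NLRP3 of 0.48 at 0.377 ± 0.117 CPM in the control (SD, n = 3; adjusted p = 0.512). Without control library 1 these were -0.12 and 0.75. None of 8 genes of DNA fragmentation and caspase substrates passed in edgeR; PARP1, which caspases cleave, had 0.12 (adjusted p = 0.290), the lamin gene LMNA 0.15 (adjusted p = 0.306) and the nuclease gene ENDOG 0.15 (adjusted p = 0.425). Of 8 tested transcription factors known to act on member genes, IRF1 was the only one called. NRF1, which acts on CYCS, had a log2 fold change of 0.19 (edgeR adjusted p = 0.219).

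The genes whose pattern over the 6 libraries was most like that of CASP1, among 10727 protein-coding genes whose log2 CPM averaged 2 or more, were EIF3E, LRRC49 and HSPA5. Their root mean square difference from CASP1, after each gene was centred on its own mean, was 0.00972, 0.0146 and 0.0150 on the log2 scale. The root mean square of CASP1 about its own mean was 0.0843, and its difference from CASP4, the nearest member, was 0.0343. None of these genes was called (edgeR adjusted p = 0.215, 0.564 and 0.325). Those most like CASP4, whose own root mean square was 0.0722, were AP000295.9 (0.0114), FDPS (0.0172) and ZNF584 (0.0184). They were not called either (edgeR adjusted p = 0.326, 0.327 and 0.529). All were picked as the closest of many genes over only 6 libraries, and shared regulation was not tested.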

How the data were processed

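Alignment was to GRCh38 with HISAT2, per the submitters' processing notes. The sources used here give neither its version nor the counter, annotation release or strand setting. The authors deposited raw counts per gene and FPKM values rounded to 2 decimals. Columns marked NC were read as control plasmid and OE_RBM24 as RBM24 libraries. Here counts were filtered (filterByExpr), TMM-scaled and compared with the quasi-likelihood F test of edgeR 4.0.16 in R 4.3.3, with group as the only term; p-values were adjusted with Benjamini-Hochberg over 17887 genes and called under 0.05. SE is the log2 fold change divided by the square root of F. The procedure was run on simulated counts whose changed genes all had larger fold changes than the members, and the outcome is not reported here. Limma 3.58.1 and DESeq2 1.42.0 served as alternatives. Members and lists were chosen with earlier results of these data known. Named genes are the members, called pathway genes, up to 3 per list with the smallest p, and 3 genes most like each of the 2 members with the smallest p. Some genes this rule names are not reported here. CARD17 was matched by an older symbol. Gene bounds are from GENCODE 29. Figures used matplotlib 3.10.9.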

Additional observations from a re-analysis of the deposited data

How the results depend on the processing

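All 8 members stayed uncalled in each of the 16 alternatives, and their direction held except for CASP9, which lay between -0.010 (without control library 1) and 0.069 with single libraries left out. The pathway lists had 2 genes called, 4 with no low-count filter, 1 by DESeq2, 0 by limma in each of the FPKM settings (pseudocount 1, pseudocount 0.1, and pseudocount 1 unfiltered), and 0 to 2 with single libraries left out. Over all genes 275 were called, 646 with no low-count filter, 50, 62 and 19 with those FPKM settings in turn, and 90 to 328 with single libraries left out (101 without RBM24 library 1, 90 without RBM24 library 2). PIDD1 turned to 0.0061 with total counts only, to 0.0042, 0.0049 and 0.0042 with the FPKM settings, and lay between -0.088 and 0.061 with single libraries left out (0.014 without control library 2, 0.061 without RBM24 library 3). The cause was not tested. With the replicate number as a block 293 genes were called and 0 members. Same-numbered libraries deviated with correlations of 0.0072, 0.056 and -0.00039, and libraries of unlike number with -0.109 to 0.0914. These values gave no sign of pairing by number, but so few libraries cannot exclude it. Per kilobase of exon union, CASP1 ranked 2 and CASP4 ranked 3; per kilobase of principal transcript CASP9 ranked 6, APAF1 ranked 7 and DFFB ranked 8 (both chosen after seeing the data). Of the 8 members DFFB had the fewest counts, 374 to 585 per library, which limits its precision.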
